A study of Mus musculus with 27 samples.

Results

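Apolipoproteins are the protein components of the particles that carry cholesterol and triglyceride through the blood, and the 10 genes described here, Apoa1, Apoa2, Apoa4, Apoa5, Apob, Apoc1, Apoc3, Apoe, Apoh and Apom, encode secreted apolipoproteins made in the liver. They were taken from the 43346 genes of the count table by matching Ensembl gene IDs to GENCODE M21 symbols, and all 10 were found. The RNA came from hepatocytes, the main cell type of the liver, of female mice at 12 weeks of age. The 9 inbred strains were A/J, C57BL/6J, 129S1/SvImJ, NOD/ShiLtJ, NZO/HlLtJ, DBA/2J, CAST/EiJ, PWK/PhJ and WSB/EiJ, with 3 libraries labelled as biological replicates in each, 27 in all. The labels name no treatment and no engineered allele, so the groups differ by strain. The wider study related genetic differences between strains to histone marks, DNA methylation and expression; only expression is analysed here. The labels call the replicates biological and do not name the animals, so p-values measure the spread between these libraries.

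Lipoprotein particles are built on scaffold proteins. Apob is the large non-exchangeable protein of the triglyceride-rich particles that hepatocytes secrete, whereas Apoa1 and Apoa2 are the main structural proteins of high-density lipoprotein (HDL). The smaller exchangeable apolipoproteins move between particles and set how fast lipases hydrolyse them and how fast receptors in the liver take them up. Apoe binds receptors of the low-density lipoprotein family, Apoc1 and Apoc3 slow clearance, and Apoa5 favours hydrolysis of triglyceride. Apoa4 is carried on chylomicrons and HDL, Apom on HDL as the carrier of sphingosine 1-phosphate, and Apoh is a plasma glycoprotein that binds anionic phospholipid.

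Of the 10 genes, 4 lie together on chromosome 9. In GENCODE M21 coordinates on GRCm38, a build that the submitters' processing notes name, Apoa1 spans chr9:46228580-46230466 on the plus strand, Apoc3 chr9:46232933-46235636 on the minus strand, Apoa4 chr9:46240696-46243459 on the plus strand and Apoa5 chr9:46268633-46271919 on the plus strand. A second pair lies on the minus strand of chromosome 7, with Apoc1 at chr7:19689481-19692660 and Apoe at chr7:19696109-19699188. Apoa2 (chr1:171225054-171226379, plus), Apob (chr12:7977648-8016835, plus), Apoh (chr11:108343354-108414396, plus) and Apom (chr17:35128997-35132050, minus) lie apart. All 10 are protein-coding, and values below are counts over the whole gene.

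The sequences before the start of 4 members are shown because the levels of the clustered genes Apoa1, Apoa4 and Apoa5 took different orders over the strains, and because Apoe is the member with the most counts. RefSeq promoter windows on GRCm38.p6 matched 8 of the 10 members. Each line holds the bases of the 250-base window that lie before the GENCODE start, 5′ to 3′ on the gene's strand, with motif matches in capitals. Their positions are chr9:46228380-46228579 (plus) for Apoa1, chr9:46240594-46240695 (plus) for Apoa4, chr9:46268383-46268632 (plus) for Apoa5 and chr7:19699189-19699438 (minus) for Apoe.
Apoa1: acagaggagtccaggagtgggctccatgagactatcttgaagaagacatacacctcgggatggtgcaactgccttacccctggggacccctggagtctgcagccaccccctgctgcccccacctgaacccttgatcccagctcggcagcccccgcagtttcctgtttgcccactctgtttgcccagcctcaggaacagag
Apoa4: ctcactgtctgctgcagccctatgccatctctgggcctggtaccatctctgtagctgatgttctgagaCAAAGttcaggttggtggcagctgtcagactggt
Apoa5: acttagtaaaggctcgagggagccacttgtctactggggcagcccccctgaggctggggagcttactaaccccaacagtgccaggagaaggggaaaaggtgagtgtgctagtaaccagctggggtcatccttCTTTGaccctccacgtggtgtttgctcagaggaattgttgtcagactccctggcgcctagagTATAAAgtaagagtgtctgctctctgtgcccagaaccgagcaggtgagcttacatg
Apoe: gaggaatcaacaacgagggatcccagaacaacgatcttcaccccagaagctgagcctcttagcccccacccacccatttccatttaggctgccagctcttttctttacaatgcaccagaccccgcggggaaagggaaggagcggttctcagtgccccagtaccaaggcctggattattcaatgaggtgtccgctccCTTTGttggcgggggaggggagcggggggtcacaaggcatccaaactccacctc

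The 3 motifs searched, on both strands, were TATAAA (the TATA box), CAAAG (the core of the site of the hepatic receptor HNF4A) and AGGTCA (the half-site of many nuclear receptors). Of 32851 RefSeq windows of the same length, 12.4% held TATAAA, 48.6% CAAAG and 14.0% AGGTCA. Apoa5 had TATAAA 56 bases before its RefSeq start and CAAAG on the other strand 118 bases before it. Apoa4 had CAAAG 182 bases before its RefSeq start, Apoe had it on the other strand 54 bases before, and Apoa1 had none of the 3 in its window. Each match is a description of these reference letters, and the sequences of the other strains were not used here.

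The members were among the more abundant transcripts of these cells. Together they took from 3.65% to 6.21% of a library's counts, and a single member had between 2963 and 872902 counts in a library, so counting error was small beside the spread between libraries. The shallowest library, CAST/EiJ replicate 5, had 17015956 counts in all and the deepest, replicate 3 of A/J, had 35078511. Per kilobase of exon, the level averaged over the strains was highest for Apoa2, at 11160 ± 2570 CPM per kilobase (SD over 9 strain means; CPM is the count scaled to a library size of 1e6), followed by Apoe at 9414 ± 2290 and Apoa1 at 5464 ± 2010. Apoc1 (3333 ± 622), Apoc3 (1879 ± 555) and Apoh (1732 ± 356) were intermediate on that scale. Apoa5 (625.6 ± 242), Apob (487.6 ± 155), Apom (378.6 ± 130) and Apoa4 (297.7 ± 265) were the lowest per kilobase, and Apoa4 was the member whose SD came nearest to its mean. The exon length used is that of all annotated exons of a gene merged, at 537 bases for Apoa2 and 2138 for Apoe. This order therefore depends on the annotation.

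All 10 members differed among the 9 strains in edgeR's quasi-likelihood test. That count is read against its background, since 74.2% of the 14482 genes tested were also called at an adjusted p under 0.05. Over the 36 pairs of strains, 138 of 360 combinations of member and pair were called (38.3%), against 23.4% for all genes. The pairs share libraries and are not independent. The range from the lowest to the highest strain mean had a median of 1.30 on the log2 scale for the members and 0.945 for all genes. Of the 80 pairs of strains that neighboured each other in the order of a member, the test called 1, Apoa4 between WSB/EiJ and NOD/ShiLtJ. Elsewhere the order below therefore separates strains that are some places apart, not neighbours.

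**Figure D1:**
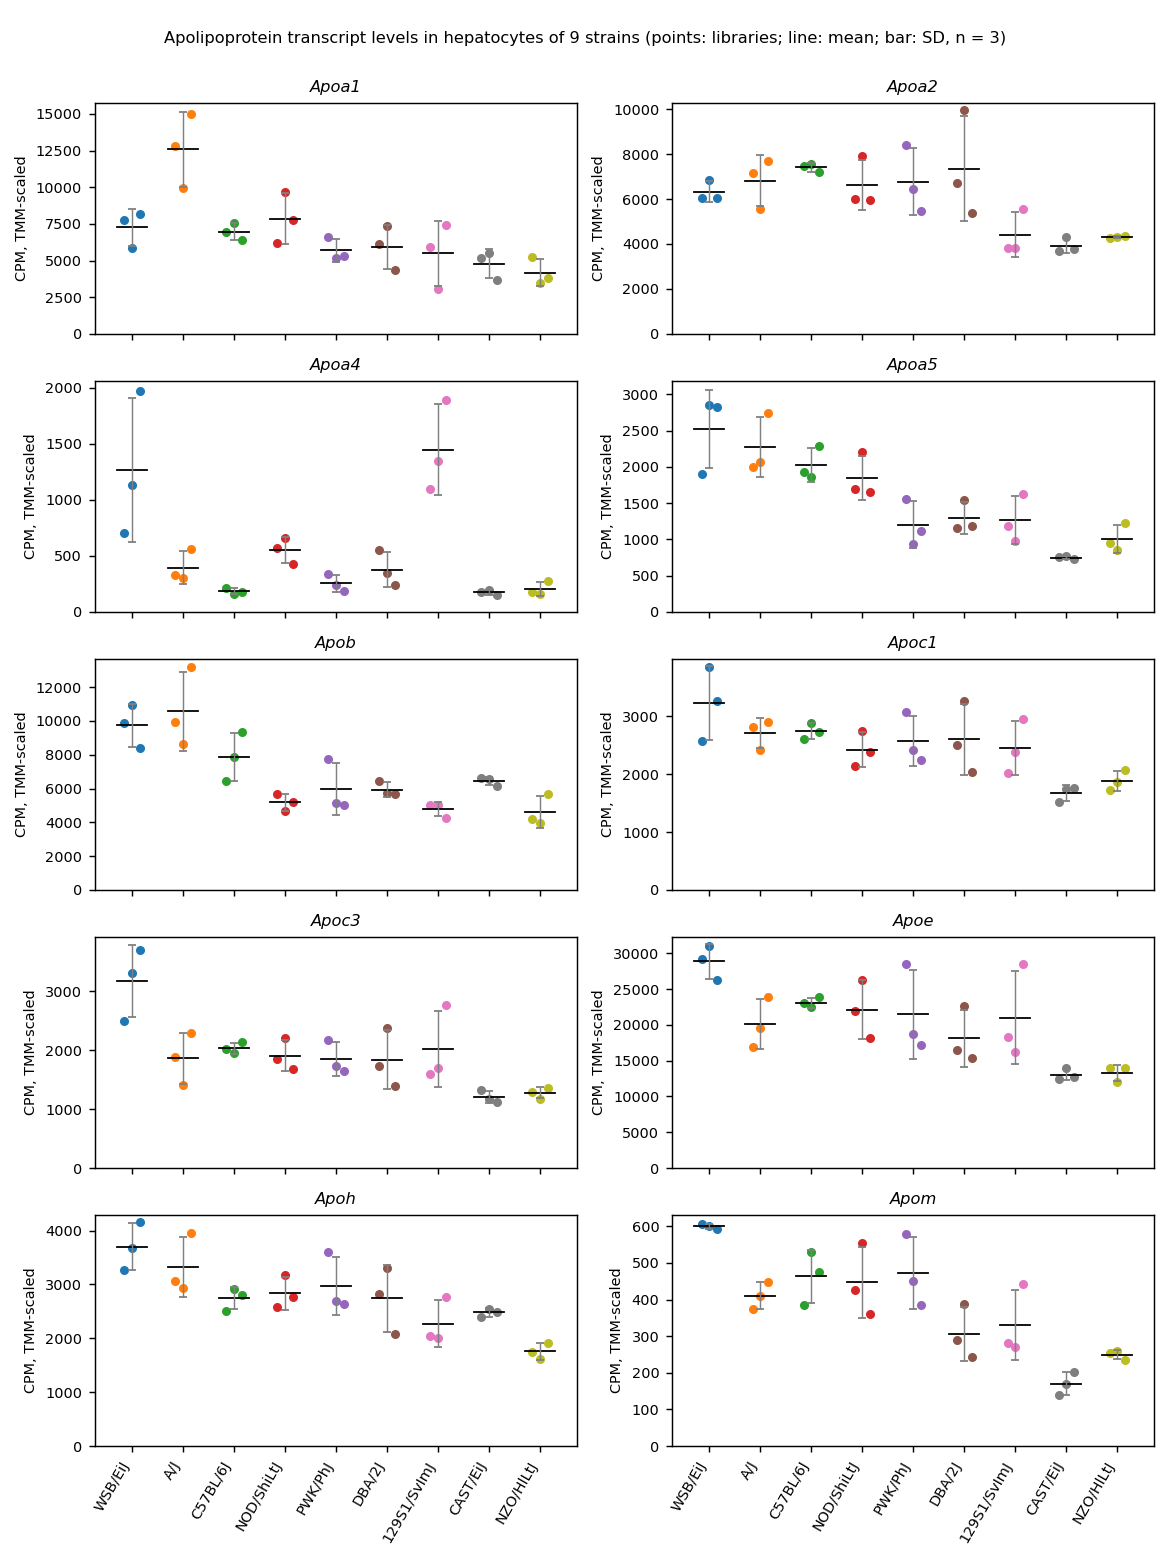
TMM-scaled CPM of each apolipoprotein gene (vertical axis, from 0) in the 9 strains (horizontal axis); points are libraries, lines the mean of 3 libraries and bars its SD. All libraries of WSB/EiJ and 129S1/SvImJ, from 708 to 1968 CPM for Apoa4, are above the highest of the other strains at 662 CPM, and CAST/EiJ or NZO/HlLtJ has the lowest mean of every member.

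Levels in single strains are given in CPM of the library size scaled by TMM, a method that sets library sizes so that most genes do not differ. This scaling touches every strain difference below. The TMM factors ran from 0.722 to 1.226, and their strain means differed by up to 0.572 on the log2 scale, between NZO/HlLtJ and WSB/EiJ. The summed level of the members and the factor had a correlation of -0.910 over the 27 libraries, which is partly built in, because a scaled level is divided by the factor. For that reason the difference between the highest and lowest strain of each member is also given with library totals alone, an alternative chosen after seeing the data. Of the 360 combinations of member and pair, 63 had the other sign on that scale. The called pairs that were also called there in the same direction were 6 of 8 for Apoa1, 10 of 14 for Apoa2, 19 of 22 for Apoa4, 18 of 20 for Apoa5, 9 of 15 for Apob, 6 of 10 for Apoc1, 9 of 14 for Apoc3, 9 of 11 for Apoe, 4 of 9 for Apoh and 13 of 15 for Apom. Statements that libraries do or do not overlap are about TMM-scaled CPM, and unscaled CPM, the count per 1e6 of the library total, is named where it differs.

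Apoa1, the main protein of HDL, was highest in A/J. Its 3 A/J libraries had 9924, 12829 and 15002 CPM, above the highest library of any other strain (9665 CPM in NOD/ShiLtJ). On unscaled CPM they overlapped with NOD/ShiLtJ, from 8927 in A/J replicate 2 to 9842 in NOD/ShiLtJ replicate 2. NOD/ShiLtJ (7867 ± 1751 CPM; SD, n = 3, here and below), WSB/EiJ (7269 ± 1256), C57BL/6J (6965 ± 591), DBA/2J (5951 ± 1494), PWK/PhJ (5694 ± 797), 129S1/SvImJ (5485 ± 2210) and CAST/EiJ (4790.3 ± 972) followed in order. NZO/HlLtJ was lowest, with 3500.1, 3792 and 5243 CPM. These middle strains overlapped with their neighbours throughout. A/J exceeded NZO/HlLtJ 3.01-fold (log2 difference 1.59 ± 0.28 SE, edgeR adjusted p = 0.000169), and 1.03 on the log2 scale remained with library totals alone (adjusted p = 0.00102). In all, 8 of the 36 pairs were called: A/J above 5 strains, and NZO/HlLtJ below C57BL/6J, NOD/ShiLtJ and WSB/EiJ besides. That count was 5 without NZO/HlLtJ replicate 2, 5 without NZO/HlLtJ replicate 3, and 5 with Kupffer cell and endothelial scores in the model.

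Apoa2, the other HDL scaffold, did not share the A/J peak. C57BL/6J had the highest mean, 7409 ± 191 CPM, and 5 more strains lay between 6325 ± 463 (WSB/EiJ) and 7352 ± 2338 (DBA/2J). Lower means followed in 129S1/SvImJ (4409 ± 1008), NZO/HlLtJ (4317 ± 52.9) and CAST/EiJ (3926 ± 321). The highest library of those 3 strains, 129S1/SvImJ at 5573 CPM, reached into the ranges of A/J, DBA/2J and PWK/PhJ. C57BL/6J exceeded CAST/EiJ 1.89-fold (log2 difference 0.92 ± 0.22 SE, edgeR adjusted p = 0.00186; 0.58 with library totals alone). All 14 called pairs had 1 of the 3 low strains as the lower side. With Kupffer cell and endothelial scores in the model the pairs called were 5, and C57BL/6J against CAST/EiJ was no longer called (log2 difference 0.48, adjusted p = 0.142). Within a library, the ratio of Apoa1 to Apoa2 counts, which no scaling changes, was 1.79, 1.79 and 1.95 in A/J and at most 1.54 in any library of the other strains.

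Apob, the scaffold of very-low-density lipoprotein, was highest in A/J and WSB/EiJ. The A/J libraries had 8634, 9937 and 13179 CPM and those of WSB/EiJ 8391, 9881 and 10945 CPM. C57BL/6J (7879 ± 1430) overlapped with both. The other 6 strains lay lower, with CAST/EiJ at 6448 ± 258, PWK/PhJ at 5991 ± 1544, DBA/2J at 5939 ± 427, NOD/ShiLtJ at 5184 ± 508, 129S1/SvImJ at 4776 ± 426 and NZO/HlLtJ at 4608 ± 933 CPM. A/J and WSB/EiJ were each called above all 6 of those strains, and C57BL/6J above 3, which makes up all 15 called pairs. Of these, 6 were lost with library totals alone: A/J above CAST/EiJ (0.21 on the log2 scale, adjusted p = 0.262), WSB/EiJ above CAST/EiJ (adjusted p = 0.679) and PWK/PhJ (adjusted p = 0.0505), and C57BL/6J above NZO/HlLtJ (adjusted p = 0.0592), 129S1/SvImJ (adjusted p = 0.0669) and NOD/ShiLtJ (adjusted p = 0.108). From A/J to NZO/HlLtJ the fold was 2.30 (log2 difference 1.20 ± 0.21 SE, edgeR adjusted p = 0.000147; 0.64 with library totals alone). Apob was the member for which CAST/EiJ stood highest in the order, in the fourth place.

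Apoe, the receptor ligand and the member with the most counts, was highest in WSB/EiJ with 26286, 29245 and 31065 CPM. C57BL/6J (23103 ± 702), NOD/ShiLtJ (22124 ± 4081), PWK/PhJ (21446 ± 6199), 129S1/SvImJ (21016 ± 6526), A/J (20109 ± 3483) and DBA/2J (18143 ± 3975) followed with overlapping libraries. NZO/HlLtJ had 12036, 13908 and 13975 CPM and CAST/EiJ 12482, 12672 and 13959 CPM. Every library of those 2 strains was below every library of the other 7 on this scale. On unscaled CPM they overlapped, with 16930 in NZO/HlLtJ replicate 1 and 14470 in A/J replicate 1, and A/J was no longer called above NZO/HlLtJ (0.04 on the log2 scale, adjusted p = 0.848) or CAST/EiJ (0.13, adjusted p = 0.5). WSB/EiJ exceeded CAST/EiJ 2.21-fold (log2 difference 1.15 ± 0.24 SE, edgeR adjusted p = 0.000552; 0.64 with library totals alone). All 11 called pairs had CAST/EiJ or NZO/HlLtJ as the lower side. The count was 5 without CAST/EiJ replicate 1, 5 without CAST/EiJ replicate 5, 7 without CAST/EiJ replicate 4 and 7 without NZO/HlLtJ replicate 2.

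Apoc1 and Apoc3, which slow the clearance of lipoproteins, had an order like that of Apoe. For Apoc3 the WSB/EiJ libraries had 2498, 3315 and 3697 CPM, 7 strains lay between 2032 ± 93.5 (C57BL/6J) and 1275 ± 91.7 (NZO/HlLtJ), and CAST/EiJ had 1113, 1178 and 1316 CPM. WSB/EiJ was called above 7 strains and CAST/EiJ below 7. The difference between both was 2.64-fold (log2 difference 1.40 ± 0.23 SE, edgeR adjusted p = 3.98e-05; 0.88 with library totals alone). Its 14 called pairs became 9 without CAST/EiJ replicate 4, 9 without CAST/EiJ replicate 5 and 9 without WSB/EiJ replicate 4.

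For Apoc1 the WSB/EiJ libraries had 2577, 3275 and 3851 CPM. The next 6 strains were close together, from 2746 ± 135 CPM in C57BL/6J to 2425 ± 304 in NOD/ShiLtJ, and no pair among these 7 strains was called. NZO/HlLtJ had 1888 ± 173 CPM and CAST/EiJ 1679 ± 134. WSB/EiJ exceeded CAST/EiJ 1.93-fold (log2 difference 0.95 ± 0.19 SE, edgeR adjusted p = 0.000499; 0.43 with library totals alone). Its 10 called pairs were CAST/EiJ below 7 strains and NZO/HlLtJ below 3; 6 were called without CAST/EiJ replicate 1. Of these called pairs 1 changed sign with library totals alone, namely A/J above NZO/HlLtJ by 0.52 on the log2 scale (adjusted p = 0.0368), which was then at -0.03 (adjusted p = 0.88). Over all 36 pairs of Apoc1, called or not, 14 had the other sign with library totals alone.

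Apoa4 varied the most among strains of all 10 members. The 129S1/SvImJ libraries had 1099.9, 1351 and 1895 CPM and those of WSB/EiJ 708, 1131 and 1968 CPM. NOD/ShiLtJ came next with 425, 569.8 and 662 CPM. A/J had 299, 326 and 562 CPM and DBA/2J 237, 344 and 549 CPM. In PWK/PhJ the values were 187, 238 and 339 CPM, and in NZO/HlLtJ 164, 179 and 278 CPM. C57BL/6J had 163, 175 and 215 CPM, and CAST/EiJ 153, 174 and 196 CPM. All 6 libraries of 129S1/SvImJ and WSB/EiJ were above all 21 others, and the strains from PWK/PhJ down overlapped with each other. On unscaled CPM WSB/EiJ replicate 2, at 589.5, was below NOD/ShiLtJ replicate 2, at 674.6.

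Between 129S1/SvImJ and CAST/EiJ, Apoa4 differed 8.31-fold (log2 difference 3.05 ± 0.37 SE, edgeR adjusted p = 5.77e-07), and by 3.03 on the log2 scale with library totals alone. Its F statistic over the 9 strains was 24.9 (adjusted p = 1.42e-08). Of the 36 pairs 22 were called: 129S1/SvImJ and WSB/EiJ each above 7 strains, NOD/ShiLtJ above 4, A/J above 3 and DBA/2J above 1. C57BL/6J was 2.97 ± 0.36 SE below 129S1/SvImJ on the log2 scale (adjusted p = 2.04e-06), and at -3.27 with library totals alone. The antisense gene Gm10680 shares exon sequence with Apoa4 and had 14678 counts over the 27 libraries, 3.62% of the 405326 counts of Apoa4; Apoa4 was also the only member with counts that were not whole numbers, in all 27 libraries. The libraries were not labelled as strand-specific, so reads within the exon sequence that these 2 genes share cannot be told apart by strand. Exons of a further gene model on the other strand, Gm47528, also overlap Apoa4, and it was not analysed here.

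Apoa5, the neighbour of Apoa4 that favours triglyceride hydrolysis, had a different order. WSB/EiJ (2527 ± 540 CPM), A/J (2273 ± 415), C57BL/6J (2026 ± 236) and NOD/ShiLtJ (1847 ± 306) were the upper 4 strains. All of their libraries, at 1650.1 CPM or more, were above all libraries of the other 5 strains. On unscaled CPM the groups overlapped, with 1579 in C57BL/6J replicate 2 and 1734 in 129S1/SvImJ replicate 3. DBA/2J (1298 ± 218), 129S1/SvImJ (1264 ± 329), PWK/PhJ (1203 ± 324) and NZO/HlLtJ (1012 ± 193) overlapped with each other. CAST/EiJ was lowest, with 729, 754 and 768 CPM, below every other library. WSB/EiJ exceeded CAST/EiJ 3.37-fold (log2 difference 1.75 ± 0.23 SE, edgeR adjusted p = 2.09e-06; 1.24 with library totals alone). Of the 36 pairs 20 were called, 7 of them with CAST/EiJ as the lower side. C57BL/6J, among the lowest strains for Apoa4, was 0.68 above 129S1/SvImJ for Apoa5 on the log2 scale (adjusted p = 0.0328), a call that was lost with library totals alone (0.36, adjusted p = 0.102). Apoa5 shares exon sequence with the antisense gene Gm47544, which was not analysed here.

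Apom, the HDL carrier of sphingosine 1-phosphate, was highest in WSB/EiJ, where the libraries had 594, 599.6 and 607 CPM, above every other library. That separation was absent on unscaled CPM, with 469.4 in WSB/EiJ replicate 3 and 563.3 in NOD/ShiLtJ replicate 2. WSB/EiJ was called above neither PWK/PhJ (adjusted p = 0.216; 0.03 on the log2 scale and adjusted p = 0.905 with library totals alone) nor NOD/ShiLtJ (adjusted p = 0.15; 0.03 and adjusted p = 0.896). It was called above 4 strains in all, and C57BL/6J (edgeR adjusted p = 0.272) and A/J (adjusted p = 0.0833) were not among them. With library totals alone it was called above A/J (adjusted p = 0.0278). PWK/PhJ (472 ± 98.4), C57BL/6J (464 ± 72.6), NOD/ShiLtJ (447 ± 97.4) and A/J (410.3 ± 37.1) came next and overlapped. 129S1/SvImJ (331 ± 95.6), DBA/2J (307 ± 73.9) and NZO/HlLtJ (249.9 ± 13.2) followed. CAST/EiJ had 139.8, 169 and 202 CPM, below all other libraries. It was called below 7 strains, all but NZO/HlLtJ, and WSB/EiJ exceeded it 3.53-fold (log2 difference 1.82 ± 0.21 SE, edgeR adjusted p = 4.63e-07; 1.31 with library totals alone). Relative to Apoe in the same library, Apom was lowest in CAST/EiJ as well, at 0.0112, 0.0121 and 0.0159 counts per Apoe count. The next lowest strains on that ratio were 129S1/SvImJ, from 0.0154 to 0.0166, and DBA/2J, from 0.0159 to 0.0176, so CAST/EiJ touched both.

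Apoh, the phospholipid-binding plasma glycoprotein, differed least by count of pairs apart from Apoa1, with 9 called. WSB/EiJ had 3276, 3676 and 4158 CPM and A/J 2937, 3067 and 3964 CPM. PWK/PhJ, NOD/ShiLtJ, C57BL/6J, DBA/2J and CAST/EiJ lay between 2975 ± 539 and 2479.5 ± 82.5 CPM, and 129S1/SvImJ had 2273 ± 430.1 CPM. NZO/HlLtJ was lowest, with 1613, 1747 and 1922 CPM, all below the lowest library of any other strain, and was the lower side of 6 of the 9 pairs. WSB/EiJ exceeded NZO/HlLtJ 2.10-fold (log2 difference 1.07 ± 0.19 SE, edgeR adjusted p = 0.000149; 0.50 with library totals alone). With library totals alone 5 pairs were called. Apoh overlaps exons of Prkca on the other strand, which had 11014 counts, 0.544% of those of Apoh.

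**Figure D2:**
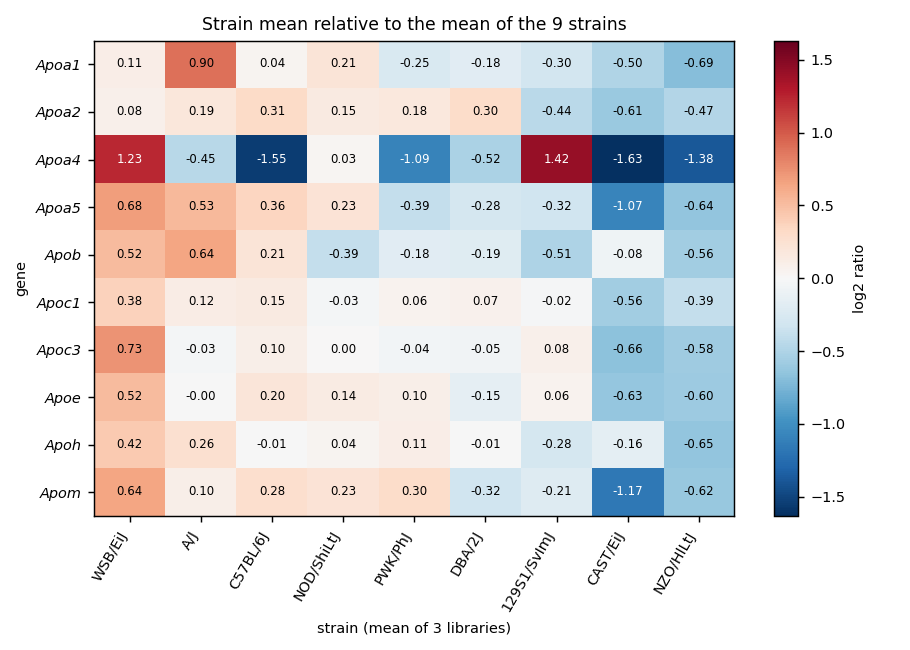
Log2 ratio of each strain's mean CPM (columns) to the mean of the 9 strain means, for each gene (rows); red is above and blue below that mean. CAST/EiJ and NZO/HlLtJ are below it for all 10 genes and WSB/EiJ is above it for all 10, whereas Apoa4 alone is above it in 129S1/SvImJ by more than 1.

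Read by strain, WSB/EiJ had the highest mean for 6 members, A/J for Apoa1 and Apob, C57BL/6J for Apoa2 and 129S1/SvImJ for Apoa4. CAST/EiJ had the lowest mean for 7 members and NZO/HlLtJ for Apoa1, Apob and Apoh, and NZO/HlLtJ was among the 2 lowest for 9 members. Each strain has 80 combinations of 10 members and 8 other strains. WSB/EiJ was called higher in 38 and lower in 0 of them (all genes, 12.6% and 11.5%), and with library totals alone in 30 and 4. A/J was higher in 31 and lower in 3 (all genes, 12.1% and 12%). For A/J the split depended on the scaling, with 17 higher and 13 lower on library totals alone, and it depended on replicate 3, without which 15 were higher.

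CAST/EiJ was called lower in 49 combinations and higher in 0 (all genes, 17.3% and 15.5%), and in 41 and 4 with library totals alone. NZO/HlLtJ was lower in 40 and higher in 0 (all genes, 12.9% and 11.4%), in 32 and 2 with library totals alone, and lower in 21 without its replicate 2. With Kupffer cell and endothelial scores in the model NZO/HlLtJ was lower in 15 and higher in 2, and CAST/EiJ lower in 38 and higher in 0. Without the scores, the shares of lower calls were 61.2% in CAST/EiJ and 50% in NZO/HlLtJ. A strain's share of lower calls rests on the same 3 libraries throughout and is a description.

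C57BL/6J was higher in 20 and lower in 4 combinations (all genes, 10.6% and 9.52%), and in 14 and 4 with library totals alone. Without its replicate 2 or 4 it was higher in 13 or 11, and without DBA/2J replicate 4 it was lower in 7. NOD/ShiLtJ was higher in 16 and lower in 6 (all genes, 9.02% and 8.96%), higher in 5 without replicate 2 and lower in 2 without replicate 3; with library totals alone it was higher in 25 and lower in 5. PWK/PhJ was higher in 12 and lower in 11 (all genes, 15.3% and 15.1%), in 14 and 10 with library totals alone, higher in 3 without replicate 1 and lower in 7 without either replicate 2 or replicate 3. These shares of PWK/PhJ were near those of all genes, but with Kupffer cell and endothelial scores in the model 1 was higher and 19 lower. DBA/2J was higher in 9 and lower in 10 (all genes, 9.14% and 7.29%), in 9 and 15 with library totals alone, higher in 3 without replicate 3 and lower in 5 without replicate 4. 129S1/SvImJ was higher in 12 and lower in 15 (all genes, 9.79% and 10.9%), and in 18 and 9 with library totals alone; it was lower in 8 or 7 without replicate 1 or 2 and higher in 7 without replicate 3.

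**Figure D3:**
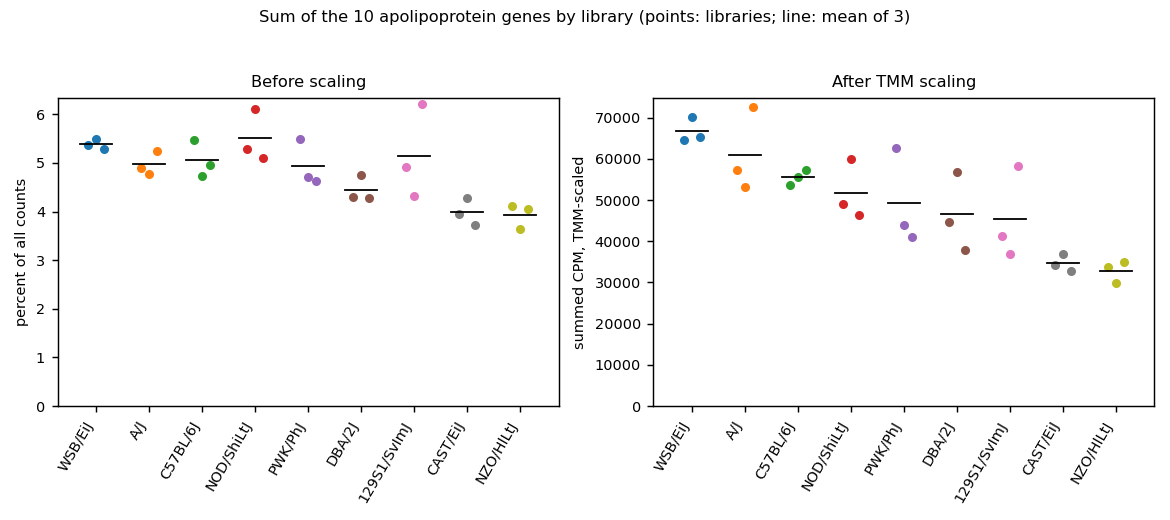
Sum of the 10 genes in each library, as a percent of all counts before scaling (left) and as TMM-scaled CPM (right), by strain; points are libraries and lines the mean of 3. CAST/EiJ and NZO/HlLtJ, from 3.65% to 4.27% before scaling, have the lowest means on both scales, whereas NOD/ShiLtJ (5.50%) has the highest mean before scaling and WSB/EiJ after it.

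Before scaling, the members took 5.50% ± 0.539 of the counts in NOD/ShiLtJ, 5.38% ± 0.10 in WSB/EiJ and 5.15% ± 0.964 in 129S1/SvImJ. C57BL/6J had 5.06% ± 0.38, A/J 4.97% ± 0.241, PWK/PhJ 4.94% ± 0.482 and DBA/2J 4.44% ± 0.266. CAST/EiJ (3.99% ± 0.27) and NZO/HlLtJ (3.94% ± 0.251) had the lowest shares, and their highest library, at 4.27%, was just under the lowest library of DBA/2J at 4.28%. On unscaled levels the highest strain was another one for Apoa2 and Apoh (NOD/ShiLtJ) and for Apoc1 and Apoe (129S1/SvImJ). The lowest strain was another one for Apoa4 (C57BL/6J) and Apob (129S1/SvImJ).

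Libraries of a strain also differed, and in several strains most members moved together. On TMM-scaled CPM, A/J replicate 3 and PWK/PhJ replicate 1 had the highest level of their strain for 10 of 10 members. For 129S1/SvImJ replicate 3 and NOD/ShiLtJ replicate 2 this held for 9, and for DBA/2J replicate 3 and NZO/HlLtJ replicate 3 for 8. DBA/2J replicate 4 had the lowest for 9. In other strains the members split: C57BL/6J replicate 2 had the highest level for 5 and the lowest for 4, and WSB/EiJ replicate 4 for 4 and 4. As a percent of all counts, before scaling, A/J replicate 3 had the highest Apob of its strain (0.951%) but the lowest Apoc1 (0.209%). On that scale DBA/2J replicate 4 had the lowest Apoa1 of its strain (0.493%) but the highest Apoa5 (0.134%). Over the 27 deviations of log2 CPM from the strain mean, the correlation between members had a median of 0.641 over the 45 pairs of genes, from -0.00167 to 0.877. The deviations of 1 library share its scaling factor, whose part in this correlation was not tested.

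**Figure D4:**
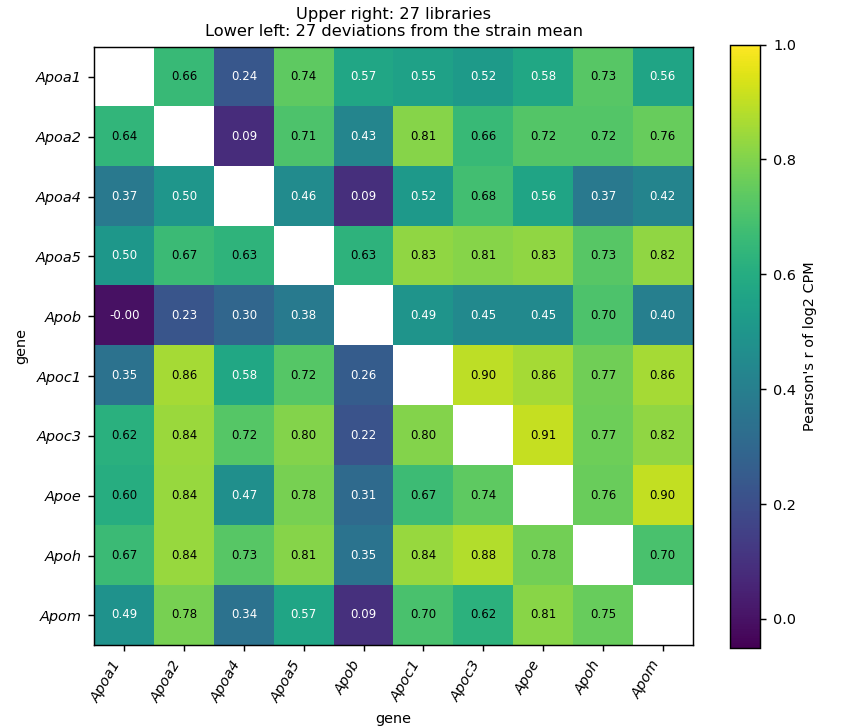
Pearson's r of log2 CPM between apolipoprotein genes (rows and columns) over 27 libraries (upper right) and over 27 deviations from the strain mean (lower left). Apoc3, Apoe, Apoc1 and Apom form the brightest block in the upper right, at 0.82 or more, and the rows of Apoa4 and Apob are the darkest.

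Over the 27 libraries themselves, the correlation had a median of 0.697, from 0.0853 to 0.906. The closest pairs were Apoc3 with Apoe (0.906), Apoe with Apom (0.904) and Apoc1 with Apoc3 (0.897), which lie on different chromosomes. Apoc1 with its neighbour Apoe had 0.86. Within the chromosome 9 cluster the 6 pairs had a median of 0.602, and Apoa1 with Apoa4 had 0.236. Pairs with Apoa4 had a median of 0.425, and pairs with Apob 0.448. Apob also stood apart within strains, where its deviations had a median correlation of 0.257 with the other members, against 0.746 for the pairs without Apoa4 and Apob. Strain and scaling are shared by all genes of a library, and these values carry no test.

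**Figure D5:**
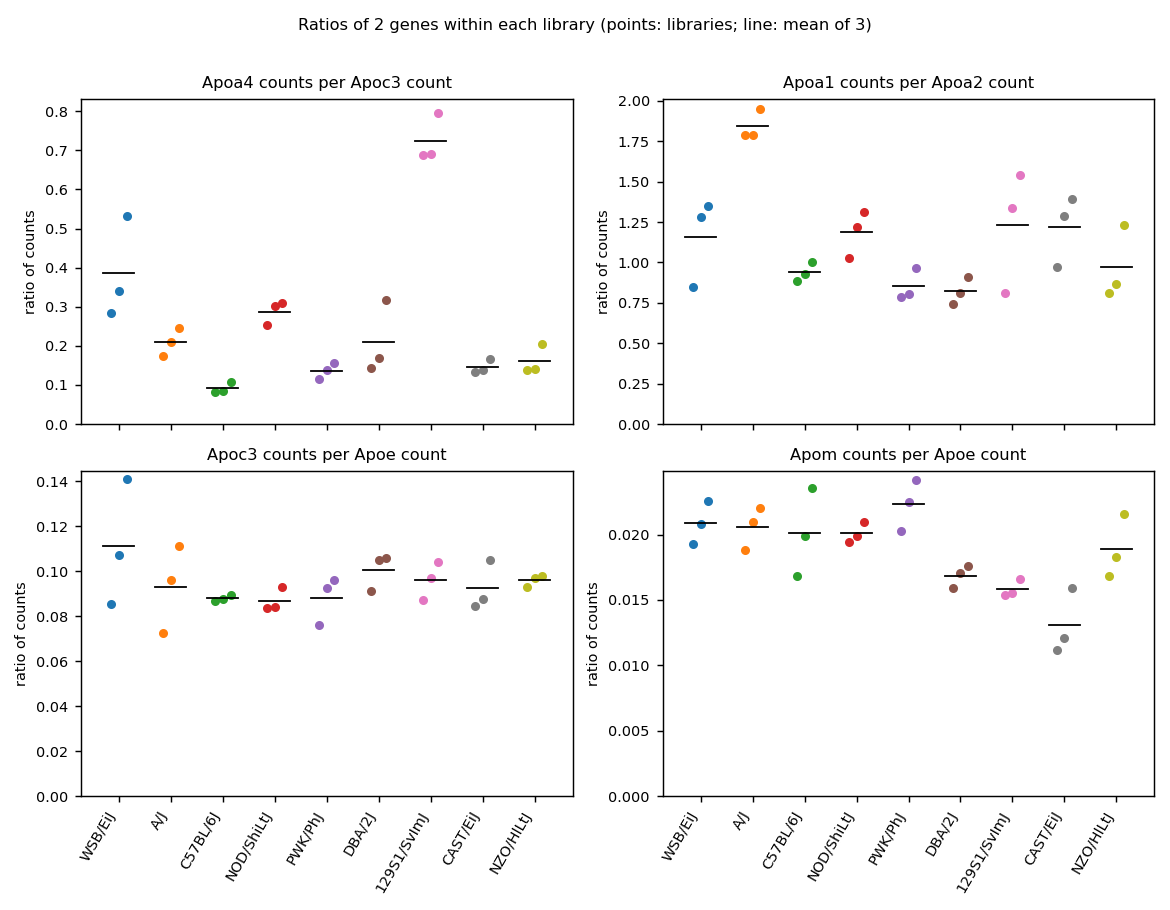
Counts of 1 gene per count of another in the same library (vertical axes, from 0) by strain, a measure that library scaling does not change; points are libraries and lines the mean of 3. The 3 libraries of 129S1/SvImJ have the highest Apoa4 to Apoc3 ratios, 0.687 to 0.795, and those of A/J the highest Apoa1 to Apoa2 ratios, 1.79 to 1.95. Strain means of Apoc3 to Apoe run from 0.0868 to 0.111, with libraries from 0.0725 (A/J) to 0.141 (WSB/EiJ).

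Ratios of counts within a library do not depend on the scaling, and show where members differed in their order over the strains. Apoa4 had 0.687, 0.69 and 0.795 counts per Apoc3 count in 129S1/SvImJ, and between 0.284 and 0.532 in WSB/EiJ, 0.252 and 0.309 in NOD/ShiLtJ and 0.0823 and 0.107 in C57BL/6J. The ratio in 129S1/SvImJ was thus above that in WSB/EiJ in every library, although both strains had high Apoa4 levels. Per Apoa5 count, Apoa4 was at 0.923 to 1.38 in 129S1/SvImJ and at most 0.696 elsewhere. Apoc3 per Apoa1 count was lowest in A/J, at 0.143 to 0.152, and at least 0.213 in every other library. By contrast, Apoc3 per Apoe count had strain means between 0.0868 (NOD/ShiLtJ) and 0.111 (WSB/EiJ), and each strain overlapped with at least 1 other.

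The label of the cells was checked against marker lists. The 12 hepatocyte markers summed to means from 152800 CPM in CAST/EiJ and 155100 in NZO/HlLtJ to 285100 in WSB/EiJ and 346800 in A/J, and 11 of the 12 differed among strains (Hpx, Ass1 and Ttr with the widest ranges). Albumin (Alb) made up most of the sum, at 229350 CPM in A/J, and the list was not of 1 direction: Cps1, Ass1 and Tat had their lowest means in A/J, at 3354, 1192 and 778 CPM, and Tat was not called. The summed members had a correlation of 0.821 with that sum over the 27 libraries. The 10 Kupffer cell (liver macrophage) markers summed to between 35.04 CPM in a DBA/2J library and 441.9 CPM in a PWK/PhJ library. By strain mean, the 10 endothelial markers ran from 77.7 (NZO/HlLtJ) to 406 CPM (PWK/PhJ) and the 10 stellate cell markers from 34.33 (NZO/HlLtJ) to 103.9 CPM (PWK/PhJ). Of these, 10 Kupffer cell, 10 endothelial and 7 stellate cell markers differed among strains, led by Marco, Clec4f and Adgre1, by Lyve1, Cdh5 and Oit3, and by Colec11, Bgn and Reln; no marker was at 0 in every library. Their sums had correlations of 0.496, 0.431 and 0.575 with the summed members. In these correlations, as in that of 0.821, both sums are divided by the same scaled library size, whose part was not tested. Markers of bile duct cells, lymphocytes and erythroid cells mostly fell under the filter or stayed low, with 2 of 6, 2 of 7 and 5 of 6 tested. Called among them were Sox9 and Spp1 (bile duct), Ighm and Ccl5 (lymphocyte) and Alas2, Hba-a2 and Hbb-bt (erythroid). Of the 8 immediate early genes, which handling of cells can induce, 7 were tested and 2 called, Egr1 and Fos.

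With Kupffer cell and endothelial scores in the model, 115 member combinations were called, 91 of them also called without the scores and in the same direction. WSB/EiJ was then higher in 53 and lower in 0. A/J changed to 22 higher and 5 lower, 129S1/SvImJ to 12 higher and 8 lower, C57BL/6J to 4 higher and 10 lower, NOD/ShiLtJ to 9 higher and 10 lower and PWK/PhJ to 1 higher and 19 lower. For Apoe, the log2 difference of NZO/HlLtJ minus PWK/PhJ was -0.69 without the scores (edgeR adjusted p = 0.0259). It changed sign to 0.03 in that model (adjusted p = 0.953). In bulk RNA, fewer hepatocytes in a sample and less RNA per hepatocyte cannot be told apart.

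Genes that act with the members are given by counts called among the 9 strains, each to be read beside the 74.2% of all genes. Of 13 other apolipoprotein genes 12 were tested and all 12 were called, with a median range of 1.93 on the log2 scale (all genes 0.945). Apoc2, the activator of lipoprotein lipase, had 372.9 ± 110.0 CPM in WSB/EiJ and 107.6 ± 2.44 in NZO/HlLtJ (adjusted p = 4.26e-07), and Apoc4 beside it 679 ± 132 and 369 ± 7.83 in the same strains. Clu (clusterin) and Apof were highest in WSB/EiJ too, at 2378 ± 392 and 1482 ± 49.0 CPM. Apon had its highest mean in CAST/EiJ (836 ± 183 CPM), with 683 ± 84.7 in WSB/EiJ and 404.8 ± 14.5 in NZO/HlLtJ. Its lowest mean was in 129S1/SvImJ (355.9 ± 37.2 CPM). Apol9a and Apol9b, near-identical copies among which reads may be divided, were highest in DBA/2J (79.1 ± 13.2 and 114.6 ± 17.7 CPM) and at 0.508 ± 0.265 and 0.145 ± 0.101 CPM in CAST/EiJ. Saa1 and Saa2, acute phase apolipoproteins, had an SD larger than their mean in WSB/EiJ (181 ± 265 and 126 ± 187 CPM); Saa4, Apol7a and Apobr, the receptor, complete the called genes.

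Of 17 genes of lipoprotein assembly and secretion 15 were called, with a median range of 0.984. Sort1, the sorting receptor that binds Apob, had the widest range, from 63.7 ± 13.8 CPM in A/J to 0.675 ± 0.229 in WSB/EiJ (adjusted p = 4.03e-14), so the 2 strains with the highest Apob were at opposite ends for Sort1. Mttp, which loads lipid onto Apob, was highest in WSB/EiJ (662 ± 52.8 CPM) and lowest in NZO/HlLtJ (253 ± 30.8 CPM), as was Dgat1, an enzyme of triglyceride synthesis (36.2 ± 3.9 and 15.1 ± 2.17 CPM). Of the 3 genes that edit Apob mRNA, Rbm47 (adjusted p = 0.000411) and the deaminase Apobec1 (adjusted p = 0.0228) were called, and A1cf was not (adjusted p = 0.382). Rbm47 ran from 39.95 ± 6.46 CPM in NZO/HlLtJ to 19.3 ± 4.08 in A/J, and Apobec1 from 8.36 ± 1.7 in A/J to 4.78 ± 2.33 in WSB/EiJ.

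Among lipoprotein receptors and their regulators, 13 of 14 genes were tested and 12 called, with a median range of 2.13. The widest ranges were those of Sorl1 (24.9 ± 2.74 CPM in 129S1/SvImJ, 0.251 ± 0.117 in NOD/ShiLtJ), Cd36 (235 ± 72.1 in WSB/EiJ, 6.95 ± 0.825 in NOD/ShiLtJ) and Vldlr (21.6 ± 9.11 in 129S1/SvImJ, 1.22 ± 0.403 in PWK/PhJ). For HDL formation and remodelling, 10 of 11 genes were found and all 10 called, with a median range of 1.37. Pltp, the phospholipid transfer protein, was highest in C57BL/6J (65.9 ± 17.9 CPM) and lowest in CAST/EiJ (6.03 ± 0.292 CPM), Gpld1 was highest in WSB/EiJ (678 ± 79.5 CPM) and lowest in CAST/EiJ (193 ± 3.2 CPM), and Abcg1 ran from 7.64 ± 5.63 CPM in PWK/PhJ to 1.25 ± 0.299 in NOD/ShiLtJ. All 9 lipases and lipase inhibitors were called, with a median range of 1.30, led by Lpl (62.1 ± 13.2 CPM in A/J, 2.27 ± 0.505 in CAST/EiJ), Gpihbp1 and Angptl8.

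Of 35 regulators of apolipoprotein transcription 22 were called, with a median range of 0.875. The called genes with the widest ranges were Pparg (6.46 ± 0.35 CPM in 129S1/SvImJ, 0.107 ± 0.0339 in PWK/PhJ), Onecut1 (47.9 ± 19.6 in NZO/HlLtJ, 6.73 ± 4.22 in C57BL/6J) and Nr1d1 (71.8 ± 21.5 in CAST/EiJ, 10.9 ± 2.41 in NZO/HlLtJ). Nr1d1 encodes REV-ERBalpha, a receptor of the circadian clock. Neighbouring genes were mixed. Around the chromosome 9 cluster 4 of 7 were called, namely Sidt2 (highest in CAST/EiJ), Zpr1, Pcsk7 and Bud13 (highest in WSB/EiJ), and Sik3, Pafah1b2 and Tagln were not. Around Apoe and Apoc1 all 8 were called, and Tomm40, the gene next to Apoe, was highest in CAST/EiJ at 26.8 ± 0.971 CPM and lowest in C57BL/6J at 14.8 ± 0.965 CPM.

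Genes other than the 10 members whose levels followed a member most closely over the 27 libraries were sought among 6336 genes. Members were left out of this search, and some pairs of members given above had higher correlations than the genes named here. Apob was closest to Ptprk, a receptor phosphatase (r = 0.939), and to March6, a ubiquitin ligase (r = 0.923). Apoa5 was closest to Tor2a (r = 0.935) and to Rbp4, the plasma carrier of retinol (r = 0.909), which was also close to Apoc1 (r = 0.904) after the mitochondrial gene mt-Co1 (r = 0.908). Apoh was closest to Aup1 (r = 0.93) and Tmem208 (r = 0.929), Apom to Acp5 (r = 0.914) and Abhd3 (r = 0.90), and Apoc3 to Azgp1 (r = 0.912) and Apoc4 (r = 0.877). Apoa2 had Ddrgk1 (r = 0.901) and Fuca1 (r = 0.897), Apoe had Tmem50a (r = 0.884) and 2510039O18Rik (r = 0.873), and Apoa1 had the liver glycoprotein gene Ahsg (r = 0.85) and Atp6v0b (r = 0.809). For Apoa4 no gene came as close, with Serpina3c at 0.737 and Slc35c2 at 0.706. These libraries share strain, depth and scaling factor, and the values are a description.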

How the data were processed

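The values that the authors deposited are estimated counts (expected counts) per Ensembl gene in each of the 27 libraries, without any scaling, and 10.8% of its values were not whole numbers within a tolerance of 0.001. Per the labels' protocols, polyadenylated RNA was sequenced with a TruSeq RNA kit that is not named as strand-specific. The submitters' processing notes name GRCm38 and mm10, FastQC 0.11.5 and DESeq2, with no role. The aligner, the counting program and whether strain-specific genomes were used are not given in the sources used here, and their part in the strain differences was not tested. Symbols, exon lengths and coordinates came from GENCODE M21, which named 42462 of 43346 gene IDs.

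Counts were rounded. edgeR 4.0.16 (with limma 3.58.1, under R 4.3.3) was run with filterByExpr by strain (minimum count 10, minimum total 15), which left 14482 genes, TMM factors, and a quasi-likelihood fit over all 27 libraries with strain as the only factor. The 8 strain coefficients were tested together and each of the 36 pairs of strains separately, with Benjamini-Hochberg adjustment over all genes within each test and calls under 0.05. Standard errors were derived from the F statistic. Correlations were taken on log2 CPM (prior count 2), and ranges of strain means used log2(CPM + 0.5). The script was checked on simulated data. Each member had at least 2963 counts in every library, so the spread between libraries set the precision.

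The members, the gene lists and the tests were chosen with earlier results of these data known. Genes named from a list were up to 3 called genes with the widest range among those averaging at least 1 CPM, and any tested gene of the neighbour, Apob editing and other apolipoprotein lists; Alb, Cps1, Tat, Ccl5 and Hbb-bt lie outside that rule and were named after their values were seen. Similar genes were the 2 with the highest correlation among genes that are not members and average at least 10 CPM, passing over predicted genes and pseudogenes. Replicate numbers are shared between strains in the labels, but same-numbered libraries did not deviate together on average, so libraries were not paired. Alternatives were DESeq2 1.42.0, its size factors in edgeR, 2 other filters, no rounding, removal of a GC trend, marker scores as covariates, a replicate block, fits on 6 libraries, adjustment over all pairs, and leaving out each library.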

Additional observations from a re-analysis of the deposited data

How the results depend on the processing

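All 10 members were called among the 9 strains under every alternative run, and none of the differences between the highest and lowest strain of a member reversed; the single loss was Apoa2 between C57BL/6J and CAST/EiJ with marker scores in the model, given above. The 138 member combinations called became 160 with DESeq2 (138 shared), 132 with median-of-ratios size factors (132 shared), 114 without a filter (112 shared), 139 with a mean of at least 10 counts, 138 without rounding, 149 with a GC trend removed, 115 with Kupffer cell and endothelial scores, 117 with fits on the 6 libraries of a pair, and 143 with adjustment over all genes and pairs. With library totals alone, chosen after seeing the data, 133 were called, 103 of them shared and in the same direction. Leaving out 1 library gave 117 (without NZO/HlLtJ replicate 2) to 148 (without 129S1/SvImJ replicate 3). The 10746 genes called among the 9 strains became 9350 with the replicate block, 11445 with DESeq2, 11898 with library totals alone, and 10352 to 11245 when 1 library was left out.

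With the replicate block 108 member combinations were called, 107 of them among the 138, and CAST/EiJ was lower in 25 of its 80 combinations. The pairs called of 36 were then 5 for Apoe (11 without the block), 6 for Apoc1 (10) and 9 for Apoc3 (14). Same-numbered libraries of different strains had a mean correlation of 0.01 over 76 pairs (-0.293 to 0.275), and differently numbered ones -0.00315 over 248 pairs. Of the 27 libraries, 7 were closest to their own number. Same-numbered libraries thus did not deviate together on average, and whether some of them share a batch was not tested. Cells of other types, the scaling and single libraries move with several strain counts above, and their part in those counts was not tested beyond the values given.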
